A study of Mus musculus with 2 samples.

Results

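The genes of the proteasome, taken as the protein-coding genes of the GENCODE M21 mouse annotation whose symbols begin with Psma, Psmb, Psmc, Psmd, Psme, Psmf or Psmg, were examined for open chromatin in T-helper 1 cells. Psmb8, Psmb9 and Psmb10, the subunits of the immunoproteasome, were left out by the same rule. The rule took in 47 of 21938 protein-coding genes. By role these are 8 genes of the 20S alpha ring, 8 of the 20S beta ring, 4 chaperones of 20S assembly, 6 ATPases and 11 other subunits of the 19S particle, 3 chaperones of the 19S base, 5 activator genes, the regulator Psmf1 and Psmc3ip. The last, a cofactor of meiotic recombination, shares only the start of its name with the proteasome genes.

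The proteasome is the protease that degrades proteins tagged with ubiquitin. Its 20S core is a barrel of stacked alpha rings, which form the gate, and beta rings, which hold the active sites. The 19S particle caps the barrel, binds and removes ubiquitin, and unfolds the substrate with a ring of ATPases. Most subunits are made in every cell, while the immunoproteasome subunits, induced by interferon-γ, replace the active beta subunits and change which peptides reach MHC class I. The cytokine is itself a hallmark product of T-helper 1 cells, a class of CD4 T cells.

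The libraries came from primary T-helper 1 cells of C57BL/6NJ mice, with 1 group and 2 biological replicates and no second condition, and the labels name the assay as ATAC-seq, which marks DNA that a transposase can reach. Both replicates carry the same donor identifier, with the sex not collected and the age unknown, and whether they came from separate animals is not stated. The names of the regions also carry words such as ASTARR and insert and a time in hours that are not explained. What the time counts from is not stated, and a library made for a reporter assay cannot be told from ordinary ATAC-seq by them. The lists held 98875 open regions in replicate 1 and 91488 in replicate 2. All 7 marker genes of T-helper 1 cells, Cd4 and Tbx21 among them, had an open promoter, against 1 of 8 markers of other cells (Cd8b1, with Cd8a, B cell and myeloid markers closed). By the signal defined below, 6 of these 7 promoters lay below the lower quartile of all open promoters in both replicates. Cd4 was at the mean percentile 0.27 and Tbx21 at 11.2. Cd8b1, at 23.4, was above every T-helper 1 marker except Cd3e (34.9). The region counted for Cd8b1 also covered a start of Smyd1, on the opposite strand, or lay within 1 kb of it. Its openness and signal therefore cannot be credited to Cd8b1 alone. The markers thus differed in how many promoters were open, but the signal did not set Cd8b1 apart. Coordinates refer to mm10. Where 2 values stand together, that of replicate 1 comes before that of replicate 2.

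Almost every proteasome gene was open at its start. A promoter was called open where regions of both replicates overlapped within 1 kb of an annotated transcript start, and 44 of the 47 genes met this, against 65.9% of all protein-coding genes. The exceptions, Psma8, Psmb11 and Psme2b, had no promoter region in either replicate. The open share of 93.6% was not particular to the proteasome. It was 100% for mitochondrial ribosomal protein genes, 96.5% for cytosolic ribosomal protein genes and 91.8% for respiratory chain genes. At the 44 open promoters the median signal was 13.95 in replicate 1 and 13.92 in replicate 2. Over all 14452 open promoters it was 11.3 and 11.1. The signal is the enrichment that the authors' region caller gave each region, without a unit, and the strongest region of a promoter stands for it. It exceeded the median of all open promoters in both replicates at 33 of the 44 genes, against 6827 of all 14452 open promoters. Psmb7 alone lay below the lower quartile of all open promoters in both replicates, while 18 genes lay above the upper quartile in both. Of all 14452 open promoters, 3320 lay below the lower quartile in both replicates and 3196 above the upper quartile in both. With 1 group, there was no comparison of conditions and no test was made.

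**Figure D1:**
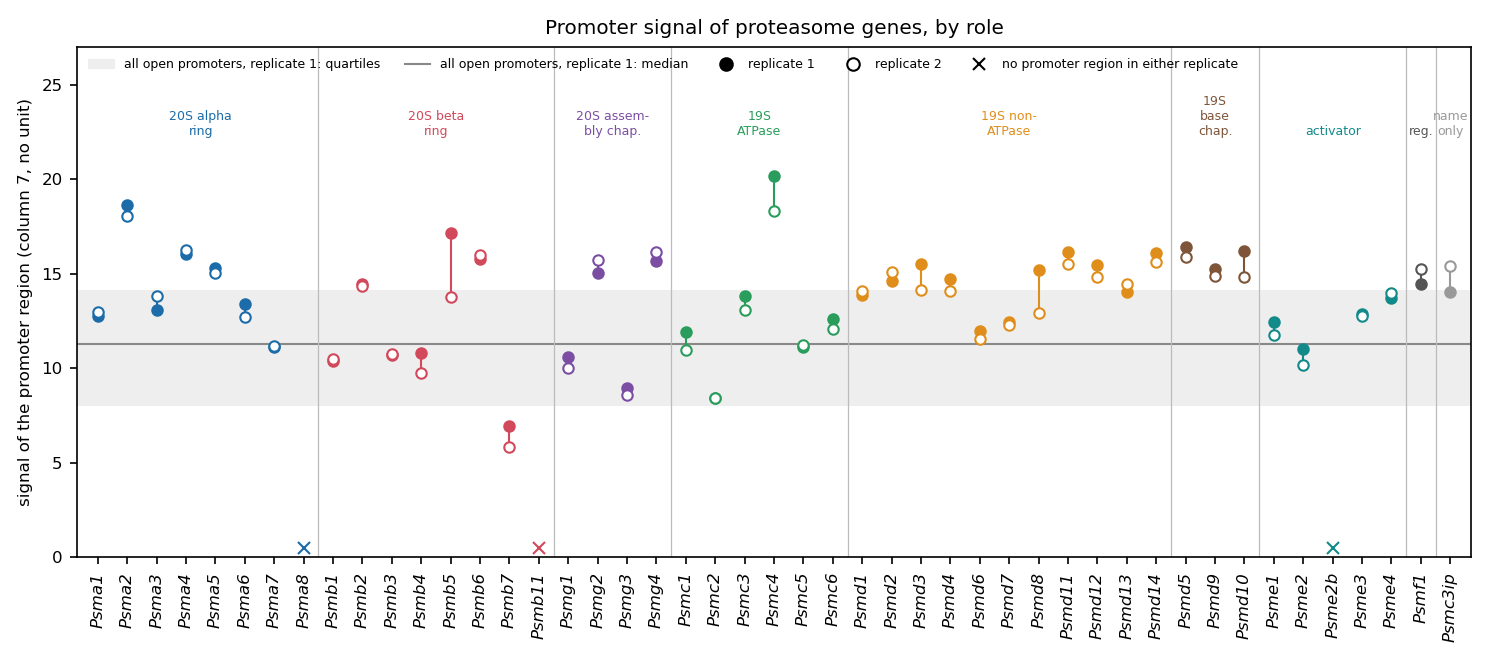
Signal of the strongest promoter region of each of the 47 genes, grouped by role (vertical axis, the caller's enrichment, no unit). Filled and open circles are replicates 1 and 2, the grey band and line are the quartiles and median of all open promoters in replicate 1, and crosses mark the 3 genes with no promoter region. Psmc4 stands highest at 20.2 and 18.3 and Psmb7 lowest at 6.94 and 5.83.

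The alpha ring genes spanned the upper part of the range. The 7 open members had a median signal of 13.4 and 13.8, and none fell below 11.1 in either replicate. Psma2 had the strongest promoter of the 20S core, with a signal of 18.6 and 18.04 over chr13:14612842-14613878, at the mean percentile 98.7 of all open promoters. Psma4 followed at 16.1 and 16.3 and Psma5 at 15.3 and 15.0. These genes encode ring subunits without an active site. Psma7 was lowest, with 11.1 and 11.2, just at the middle of all open promoters (percentile 49.7), although its region was among the widest at 1739 and 1747 bp. The alpha ring also had the highest median rank by −log10 q, the caller's measure of confidence, at percentile 85.5. The open region of Psma6 did not lie at the 5′ end of the gene model: its summit was at an internal start 14.6 kb downstream, with a signal of 13.4 and 12.7. The window of Psma2 is shown for the repeats of the Nrf1 motif, GCATGCGC on either strand, that it holds upstream of the start. This motif was in 3 of 37 open proteasome promoters with a reference window (8.11%), against 5.22% of open promoters. In the 30 bases below, the capitals mark the match nearest the start. It begins 125 bases upstream of the RefSeq start and lies 51.5 bp from the summit.
Psma2, chr13:14613106-14613135, plus strand: gcccctcttgcGCATGCGCaagggtcaaag

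The beta ring was the role with the lowest median signal, 10.8 and 10.7. Of the 7 open genes, 3 exceeded the median of all open promoters in both replicates: Psmb2, Psmb5 and Psmb6. Psmb5, which carries the chymotrypsin-like site, had 17.2 in replicate 1 and 13.7 in replicate 2. Psmb6, which carries the caspase-like site, had 15.8 and 15.99. Psmb7, which carries the trypsin-like site, had 6.94 and 5.83 (percentile 15.3), the lowest of the 44 genes. The genes of the active subunits thus stood at both ends of the range. Psmb4, a structural subunit, had 10.8 and 9.77, and Psmb1 and Psmb3 had 10.4 and 10.5 and 10.7 and 10.7. Beta ring promoters were also narrow: their median width was 1026 bp in each replicate, against 1267 and 1270 bp over all open promoters, and in replicate 2 none exceeded the median of all. Psmb6 (754 and 852 bp) and Psmb1 (789 and 902 bp) were among the narrowest regions of the proteasome genes: in replicate 1 they followed Psmf1, and in replicate 2 Psmb7 (890 bp) came between them. The region of Psmb1 that stood for it lay at a start 1.4 kb inside the gene, and a further region at the 5′ end of the gene had a signal of 8.10 and 7.21.

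The promoters of Psmb5 and Psmb6 hold the antioxidant response element TGACNNNGC, the sequence bound by Nfe2l1 and Nfe2l2, factors known to raise proteasome genes when proteasome activity falls. Searched on both strands of the RefSeq windows, which run from 250 bases upstream to 50 downstream of a start (GRCm38.p6), it was in 6 of 37 open proteasome promoters with a window. That is 16.2% (Wilson 95% interval 7.65% to 31.1%), against 14.8% of open promoters with a window and 13.3% of all. The other holders were Psmc6, Psmd12, Psmd9 and Psme4. In the bases up to 100 bp on either side of the summit the element was in 18.2% and 22.7% of the 44 promoters, against 11.3% and 11.2%. The elements nearest a start, in capitals below, begin 7 to 47 bases upstream of it in the direction of transcription. That of Psme4 reaches across the start.
Psmb5, chr14:54618023-54618052, minus strand: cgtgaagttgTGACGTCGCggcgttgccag
Psmb6, chr11:70525338-70525367, plus strand: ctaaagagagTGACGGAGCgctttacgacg
Psmd9, chr5:123228149-123228178, plus strand: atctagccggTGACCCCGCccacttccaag
Psme4, chr11:30771758-30771787, minus strand: ggctcttctggTGACGCTGCagccgcagcg

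The 4 chaperone genes of 20S assembly, Psmg1 to Psmg4, were all open. Their products guide the assembly of the alpha ring. Psmg4 had a signal of 15.7 and 16.2 and Psmg2 of 15.0 and 15.7, above the upper quartile of all open promoters. Psmg1 had 10.6 and 10.02 and Psmg3 had 8.96 and 8.57, below the median.

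Psmc4, an ATPase of the 19S base, had the highest signal of all proteasome genes, 20.2 and 18.3 at chr7:28049693-28050618, at the mean percentile 99.3. The ATPases form the ring that unfolds substrates and opens the gate. The other members were lower: Psmc3 had 13.8 and 13.1, and Psmc2, the lowest, had 8.42 and 8.43. The median of the 6 ATPase genes was 12.3 and 11.7, close to that of all open promoters. The promoters of this 1 ring thus ran from percentile 27.9 (Psmc2) to 99.3 (Psmc4). The sequence just upstream of Psmc4 is shown because it carries the strongest region. It runs from 209 to 10 bases upstream of the RefSeq start, covers the summits of both replicates, and has its 23 CpG dinucleotides in capitals. The median reference window of the open proteasome promoters held 20 CpG, with a range of 10 to 41, against 21 over all open promoters and 3 over closed ones.
Psmc4, chr7:28050102-28050301, minus strand: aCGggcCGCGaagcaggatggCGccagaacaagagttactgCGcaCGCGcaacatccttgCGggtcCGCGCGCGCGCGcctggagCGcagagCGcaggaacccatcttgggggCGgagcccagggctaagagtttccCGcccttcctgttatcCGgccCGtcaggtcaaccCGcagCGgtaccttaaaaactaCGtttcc

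The other subunits of the 19S particle lay in the upper part of the range. All 11 exceeded the median of all open promoters in both replicates, with signals from 11.98 to 16.2 in replicate 1 and from 11.5 to 15.6 in replicate 2. Their median was 14.7 and 14.2. Psmd11, a scaffold of the lid, had 16.2 and 15.5, and Psmd14, the deubiquitinase that cuts ubiquitin from the substrate, had 16.1 and 15.6. Psmd1 and Psmd2, the large scaffolds of the base, had 13.9 and 14.1 and 14.6 and 15.1. Psmd4, a ubiquitin receptor, had 14.7 and 14.1. Psmd6, a lid subunit, was lowest with 11.98 and 11.5, and Psmd7, the lid partner of Psmd14, had 12.4 and 12.3 over a wide region of 1821 and 1826 bp. At 10 of the 11 genes the summit lay within 100 bp of a start in each replicate, with a median distance of 21 and 22 bp.

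Of the 9 motifs searched, the ETS motif CCGGAAG had the highest share in proteasome promoters relative to all promoters. It is the core bound by the ETS family of transcription factors. It was in 15 of the 37 open proteasome promoters with a window, 40.5% (Wilson 95% interval 26.4% to 56.5%). The share was 17.3% of open promoters and 12.6% of all promoters with a window. Around the summits it was in 40.9% of the 44 promoters in each replicate, against 14.2% and 14.1% of all open promoters. The 19S subunit genes held it in 9 of 14 windows and the 20S subunit genes in 1 of 11, that of Psma6. Around the summits, 64.7% of the 17 genes of the 19S particle had it in each replicate and 14.3% of the 14 open genes of the 20S core. It was not particular to the proteasome: 37.7% of cytosolic and 36.2% of mitochondrial ribosomal protein genes held it, as did 16 of 64 respiratory chain genes. In the list of related pathway genes the share was 15.4%. At 14 of the 15 promoters the match nearest the summit was within 100 bp of it, at a median of 41 and 44 bp. The windows lie at starts, as most summits do, and the nearest match was taken, so such closeness is partly built in. For the antioxidant response element the median was 55 and 26.5 bp, and for the Nrf1 motif 51.5 and 29.5 bp. The matches of 6 genes follow, with the motif in capitals. That of Psmc2 is 3 bp from the summit in both replicates, and that of Psmd13 begins 6 bases upstream of the RefSeq start.
Psmc2, chr5:21785180-21785209, minus strand: gcgagccccatcCCGGAAGtgctcactggt
Psmc6, chr14:45329713-45329742, plus strand: aggcgggccagCCGGAAGgggcggagccag
Psmd6, chr14:14120972-14121001, minus strand: cagagacgcgaCCGGAAGtcagactggcgg
Psmd11, chr11:80428593-80428622, minus strand: ggaaacacacacCCGGAAGacccgccctcg
Psmd13, chr7:140882377-140882406, plus strand: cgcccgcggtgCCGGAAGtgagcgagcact
Psme4, chr11:30771711-30771740, plus strand: gtggccccgccCCGGAAGtgacttgaggcc

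Among the 37 open genes with a window, those with the ETS motif had lower median signals than those without it. The 15 holders had a median signal of 13.4 and 12.8, at the median percentile 66.8. The 22 genes whose window lacked it had 15.2 and 14.5, at 83.5. Both sets ranged widely, from percentile 27.9 to 89.8 and from 42.2 to 99.3. Open genes without a window are in neither set, and they ran from percentile 15.35 (Psmb7, the lowest member) to 86.5 (Psmg2). Of the other motifs searched, GAAANNGAA is a short form of the element of interferon regulatory factors. It was in 6 windows (16.2%, against 7.01% of open promoters): Psmb3, Psmb4, Psmd4, Psmd9, Psme1 and Psmg4. The ratio of these shares, 2.315, was close to the 2.346 of the ETS motif. The windows of Psme2, Psmb8, Psmb9 and Psmb10 held no match. Around the summits it was in 33.3% of the 3 immunoproteasome promoters in each replicate. The CCAAT box was in 12 windows (32.4% against 38.1%) and the GC box GGGCGG in 22 (59.5% against 64.5%). The E-box CACGTG was in 3 (8.11% against 9.91%) and the Yy1 motif ATGGCGGC in 2 (5.41% against 4.80%). The cyclic AMP element TGACGTCA was in none of the 37, which allows a share of up to 9.41% by the Wilson interval, against 3.19%. A match of letters is a description of the reference sequence, and binding was not measured.

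The chaperones of the 19S base had uniformly strong promoters by signal. Psmd5, Psmd9 and Psmd10, whose products hold the ATPases until the base is built, had signals of 16.4 and 15.9, 15.3 and 14.9, and 16.2 and 14.8. All 3 lay above the upper quartile of all open promoters in both replicates. Psmd5 was at the mean percentile 91.8, behind only Psmc4 and Psma2 by that mean, though Psmb5 was higher in replicate 1 and Psma4, Psmg4 and Psmb6 in replicate 2. By −log10 q the 3 genes spread from percentile 37.2 (Psmd9) to 84.2 (Psmd5), and none exceeded the median width of all open promoters. The open promoter of Psmd9 was 58.8 kb from the 5′ end of its gene model, which begins beside Hpd, and a further region 66.5 kb from that end had a signal of 8.17 and 7.99.

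The activator genes lay near the middle, with a median of 12.6 and 12.3 over the 4 open members. Psme1 and Psme2 encode the interferon-inducible cap that opens the 20S gate without ATP, and their signals were 12.4 and 11.8 and 10.99 and 10.2. The region of Psme2 was the widest of the proteasome genes, 2066 and 2080 bp, and its summit was the farthest from a start, at -463 and -464 bp, where negative is upstream. It also covered the start of Rnf31, a ubiquitin ligase gene on the opposite strand. Psme3, the nuclear relative of this cap, had 12.9 and 12.8, and Psme4, a large activator that works without ATP, had 13.7 and 13.99. Psmf1 encodes a regulator described as an inhibitor of the 20S core. Its strongest region had 14.5 and 15.3 but lay at an internal start, 23.6 kb from the 5′ end, with the summit 424 bp downstream of that start. This was the narrowest region of the proteasome genes, 520 and 569 bp. The region 2.9 kb from the 5′ end of Psmf1 had 11.8 and 11.9. Psmc3ip had 14.01 and 15.4, and leaving it out gives 43 of 46 genes open.

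The 3 closed genes are forms whose known expression lies outside T cells or a copy of an open member. Psma8 (chr18:14706151-14762301), the alpha subunit of testis that stands in for Psma7, had its nearest region 1.5 kb from a start. That region lies in an intron, 18.2 kb from the 5′ end of the gene, with a signal of 8.99 and 8.27. Psmb11 (chr14:54621433-54629556), the beta subunit of thymic cortical epithelium, starts 3.4 kb from Psmb5, and its nearest region was the promoter of Psmb5 at 3.0 and 2.9 kb. Psme2b (chr11:48945354-48946190), by name a copy of Psme2, had its nearest region 12.3 and 12.2 kb away, in an intron of Gm12185, with 12.6 and 11.7. The sources used here do not say how reads that match near-identical copies were handled. The windows of Psmb11 and Psme2b in the reference table held 4 and 2 CpG, below each of the 37 windows of open proteasome promoters.

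The high rank of the proteasome genes held for signal and less so for other measures of the same regions. Their median percentile among all open promoters was 75.3 by signal, 63.1 by −log10 q and 44.3 by width. Only 19 of the 44 exceeded the median width in each replicate. Proteasome promoters were thus high for their signal and, at a median of 1221 and 1199 bp, slightly narrower than the 1267 and 1270 bp of all open promoters. Respiratory chain genes had a median signal percentile of 69.8 and mitochondrial ribosomal protein genes of 67.2, near the proteasome genes. Cytosolic ribosomal protein genes, which like them encode a large constant machine, stood at 41.6 with a median signal of 10.2 and 10.3. No test was made between these lists.

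**Figure D2:**
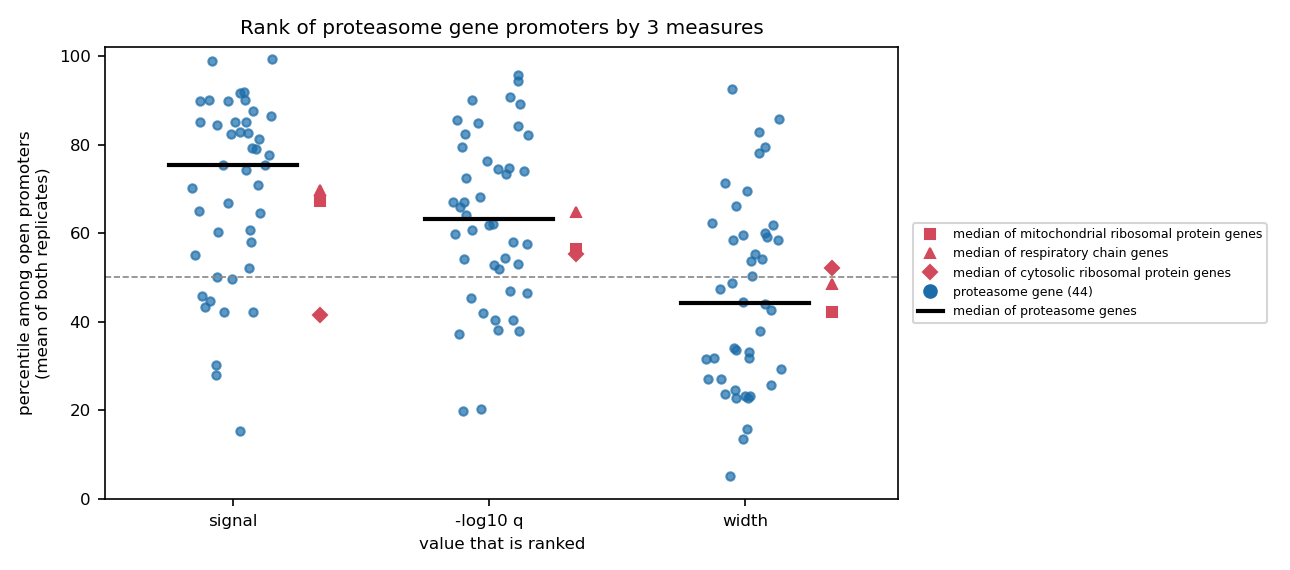
Percentile of the 44 open proteasome promoters among all open promoters (vertical axis, mean of both replicates) when ranked by signal, −log10 q or width. Each blue point is 1 gene and black bars are medians (75.3, 63.1 and 44.3), and red symbols are medians of the comparison lists. The points sit high by signal and spread around the middle by width.

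The neighbours of these genes in the pathway had lower signal and wider regions. Of 34 listed genes of ubiquitin supply, proteasome cofactors and proteasome control, 33 were annotated as protein-coding and all 33 were open. Their median signal was 12.2 and 12.4 (percentile 60.3), with a median width of 1483 and 1523 bp. The highest by the mean percentile of both replicates were Txnl1, a thioredoxin-like protein of the 19S particle, with 16.9 and 16.8, and Ngly1, the glycanase that processes Nfe2l1, with 16.1 and 15.2. Nfe2l1 itself had 11.4 and 11.4. The immunoproteasome subunits were all open with signals lower than most of the proteasome genes: 5.23 and 5.07 at Psmb8, 10.5 and 11.4 at Psmb9, and 7.11 and 7.96 at Psmb10. Psmb8 was thus below Psmb5, which it replaces, and Psmb9 below Psmb6, while Psmb10 was above Psmb7 in both replicates. The region of Psmb9 also covered a start of Tap1, on the opposite strand, or lay within 1 kb of it. Its signal therefore cannot be credited to Psmb9 alone. The regions of the 3 immunoproteasome subunits were wide, at mean percentiles from 78.8 to 85.8. That of Psmb8, though, measured 1396 bp in replicate 1 and 2349 bp in replicate 2.

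Summits sat close to the starts. The distance from summit to the nearest start had a median of 39.5 and 41.5 bp, against 80 and 82 bp over all open promoters. All annotated transcript starts of a gene counted, so the distance depends on their number, which was not compared between the 2 sets. It was under 100 bp at 79.5% and 77.3% of the genes, against 56.5% and 55.9%. The gap between the summits of the 2 replicates had a median of 0 bp and was largest at Psma1, 164 bp. Over all open promoters its median was 6 bp. After Psme2 and Psmf1, the farthest summit was that of Psmd3, a lid subunit, at -243 bp in both replicates.

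Some proteasome genes share their promoter with a neighbour. The region of 10 of the 44 open genes (22.7%) also covered a start of another protein-coding gene or lay within 1 kb of it, against 19.6% of all open promoters. At 9 of them the neighbour is on the opposite strand (20.5% against 16.9%). Psma2 is paired with Mrpl32, a mitochondrial ribosomal protein gene, Psmc2 with Dnajc2, a ribosome-bound chaperone gene, and Psmd13 with Sirt3, a mitochondrial deacetylase gene. The other pairs are Psma4 with AY074887, Psma7 with Ss18l1, Psmg2 with Cep76, Psmc5 with Ftsj3, Psmd10 with Atg4a and Psme2 with Rnf31. The signal of such a region cannot be divided between the 2 genes. Psmg3 shares its region with Gm26938 on the same strand, and no beta ring gene shared one. Members next to each other did not share a promoter: the genes Psme1 and Psme2 lie 5.9 kb apart and Psmb5 and Psmb11 3.4 kb.

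The number of open regions around the proteasome genes was near that of other genes. Within each gene and 20 kb on either side there was a median of 5 regions found in both replicates, from 1 to 14, against 4 over all protein-coding genes and 6 over those with an open promoter. The number exceeded the median of protein-coding genes of like length at 30 of the 47. That median covers open and closed genes, while 44 of the 47 are open. The share of all genes or of open genes above it was not computed, so the count alone shows no excess. These windows held 237 regions, or 244 when a region is counted once for each member. Of the 244, 52 were promoters of the member itself and 59 promoters of another coding gene. The promoters of Psmb5, Psme1 and Psme2 counted among the latter too, in the window of a neighbouring member. A further 50 were intronic, 50 intergenic, 29 exonic and 4 at starts of noncoding genes. The strongest region of the window was the gene's own promoter at 28 of the 47 genes, that of another coding gene at 10, and outside every promoter at 9. Psmc4, with the strongest promoter of all, had no other region in its window. Psmb7, with the weakest, had 14, the most of any member, and 5 of them lay in its own introns. The strongest of these, at chr2:38609904-38610835 and 33.7 kb from the start, had a signal of 16.9 and 16.2, against 6.94 and 5.83 at the promoter. Psmd14 had 9 regions, of which its promoter was strongest, and Psmd9 and Psmd12 had 8 each.

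The other genes whose strongest region was outside promoters had it in another gene, between genes or in their own intron. Beside Psmb3 it was in an intron of Pip4k2b (16.6 and 15.0) and beside Psmg4 in an intron of Slc22a23 (16.6 and 17.7). It was intergenic near Psmd13 (15.2 and 15.1), Psmd7 (13.98 and 12.9) and Psmb1 (12.9 and 10.2, the latter below the 10.5 of its promoter in replicate 2). In Psmg1 it was in its own intron, at 11.03 and 10.8 against 10.6 and 10.02 at the promoter. For the closed genes it was intergenic near Psma8 (11.004 and 9.58) and the Gm12185 intron named above for Psme2b. Which gene such a region acts on was not measured.

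**Figure D3:**
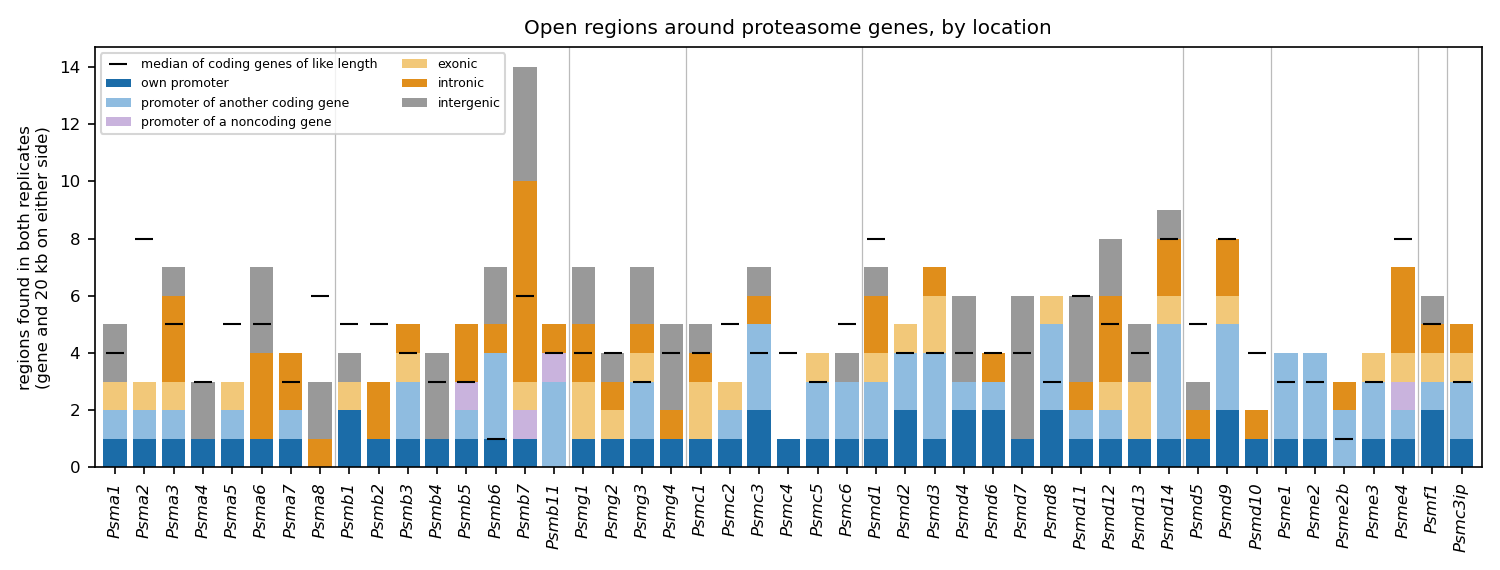
Number of open regions found in both replicates in each of the 47 genes and 20 kb on either side (vertical axis), coloured by location. Short black lines are the median of protein-coding genes of like length, and Psmb7 has the most regions (14) and Psmc4 the fewest (1).

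The replicates gave nearly the same order of proteasome promoters. Spearman's rank correlation of the signal over the 44 genes was 0.91, against 0.98 over all open promoters, whose range is wider. The log2 ratio of replicate 2 to replicate 1 had a median of -0.04, against -0.03 over all open promoters. The largest differences were at Psmb5 (-0.32), Psmb7 (-0.25) and Psmd8 (-0.24, from 15.2 to 12.9), all lower in replicate 2. The rank of Psmb5 within the beta ring therefore depended on the replicate: it was above Psmb6 in replicate 1 and below Psmb6 and Psmb2 in replicate 2.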

How the data were processed

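Open regions were deposited by the authors as 1 list per replicate, each called from that replicate alone. Per the labels, coordinates are on mm10. The sources used here name no aligner or region caller and give no read number, so the depth is unknown and no counting error can be given for a signal. In the deposited lists column 7 is the signal (fold enrichment as the caller gave it, against a reference that is not stated). The authors' −log10 of the p-value and of the q-value stand in columns 8 and 9. The deposited score in column 5 was not used, and column 10 holds the deposited summit offset.

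Regions of both lists that overlapped by at least 1 bp were joined, giving 84380 shared regions, and the strongest region of each replicate stood for a shared region. A promoter is a shared region within 1 kb of an annotated start, and where a gene had several the one with the highest mean signal was used. Percentiles rank a gene among all genes called open. Regions away from starts were classed as exonic first, then intronic, then intergenic. Promoter windows of 300 bases came from RefSeq (GRCm38.p6) and were matched by symbol to 39 of the 47 genes. Psma8, Psmb1, Psmb2, Psmb7, Psmc3, Psmd3, Psmd7 and Psmg2 had none and were searched around the summit only, as far as they were open. The window of Psmf1 lies outside its strongest region. The Wilson intervals cover the number of genes only. Computations used Python 3.11.15, pandas 2.3.3, SciPy 1.17.1 and Matplotlib 3.10.9, and the functions for joining regions, calling open promoters, distances and percentiles were tested on simulated data.

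The members and lists were chosen with earlier results of these data known. Values could be given for closed members, the 5 highest and lowest promoters, the 3 widest, narrowest, most distant and most variable between replicates, the 5 windows with most regions, members whose strongest region is outside promoters, and the extremes of the pathway list, of which the lowest are not reported here. Other genes and the sequences outside the ETS set were chosen after their values were seen, as was the split of motifs by particle. Alternatives were the region threshold, the overlap, the distance and kind of start, the ranked value, the window, and each replicate by its list or its values.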

Additional observations from a re-analysis of the deposited data

How the results depend on the processing

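The count of 44 open genes was the same with stricter region thresholds, larger overlap, a shorter distance to a start, coding starts and either replicate alone, with the background between 58.7% and 67.0%. Within 2.5 kb it was 45, as Psma8 was added, with a background of 69.0%. The median signal percentile of 75.3 became 63.1 when ranked by −log10 q or −log10 p and 44.3 by width, and lay between 73.6 and 76.5 under the other 8 alternatives. The median width over both replicates, 1210 bp, became 1227 bp with the region nearest a start. The median summit distance, 41.5 bp over both replicates, became 55.5 bp from coding starts and 76.2 bp from the 5′ end of the gene model. By the summits of 1 replicate it was 39.5 to 41.5 bp. For signal percentile, width and summit distance, the values of 1 replicate were taken at promoters still called open in both. The median of 5 regions per window became 1 in the gene body, 10 with 50 kb, 4 with −log10 q of at least 5, and was 5 to 6 without 1 replicate. The share with the ETS motif stayed between 38.9% and 40.9%. The cause of these shifts was not tested, except that a longer window counts more regions. No paired analysis was possible because the series has 1 group. The unknown depth limits what a closed promoter means: a region under the authors' threshold would not be listed.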
